A study of Homo sapiens with 54 samples.

Results

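Removal of FGF from H1 human embryonic stem cells (ESCs) was examined by comparing 3 cultures kept for 4 days without any FGF with 3 cultures kept for the same time with 100 ng/mL of bFGF (FGF2). H1 (WA01) is an established human ESC line, here grown on Matrigel. Both arms had the same basal medium, Essential 6 with 2 ng/mL of TGF-beta 1, and the arms differed in the FGF. The members were chosen by their titles, which give the cell line, the days, the additive and an experiment number from 1 to 3. They are 12 arrays of 6 cultures, each culture on 2 arrays, out of 54 arrays and 27 cultures in the series. A further 6 cultures of the same 3 experiments, 3 before the start and 3 with 100 ng/mL of FGFC (a chimera of FGF1 and FGF2), entered the fit to estimate the spread and are given beside some results. The titles give passage 49 for experiment 1, 59 for experiment 2 and 51 for experiment 3, whereas other labels of experiment 3 give 51 and 52 to the 2 arrays with bFGF and 55 and 56 to those without FGF. The cultures before the start are given passages 48, 49 and 50, so that in experiment 2 the passage of the start and that of day 4 lie far apart. Nothing in the labels says that the experiments came from separate thaws, so the p-values measure the spread between these cultures.

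FGF2 binds receptor tyrosine kinases of the FGFR family together with heparan sulfate and activates the RAS, RAF, MEK and ERK cascade, whose transcriptional targets include its own inhibitors of the SPRY and DUSP families. In human ESCs, FGF signalling acts together with TGF-beta, Activin or Nodal signalling to keep the primed pluripotent state. In embryos, low FGF and changing BMP levels bear on the choice between neural plate, placode, neural crest and surface ectoderm, and FGF is needed for the formation of mesoderm.

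Expression levels are given as the log2 signal of a probe minus the 75th percentile of its array, so that 0 is the level of a well expressed gene. A single number in parentheses after a gene is the log2 difference, no FGF minus bFGF. Where the lower arm was not well above background on any of its 6 arrays, "at least N-fold" is given in its place, computed from the lowest signal well above background. A gene is said to have risen or fallen only when limma's Benjamini-Hochberg adjusted p over all 42405 probes was at or under 0.05, with 3 cultures an arm. A gene with more than 1 probe is given by its probe of highest mean signal. Of the called genes described here, ATF3, BCL2L11, CCNG2, ERBB3, FGFR2, GLI2, LAMA3, LDHA, NOTCH2, SUFU, TP53INP1 and TPM1 also had a dimmer probe, well above background on all arrays of an arm, that did not pass the test, and other such genes are named beside their values. The share of probes well above background was 59.58% to 66.52% (median 62.72%) on the arrays without FGF and 66.09% to 72.83% (median 70.67%) on those with bFGF, and its part in the results was not tested. The SD of the log2 difference between the duplicate arrays of a culture was 0.44 to 0.708 over all probes, and that between cultures of one arm, after averaging, was 0.442 to 0.62. In RNA of whole cultures, a smaller number of cells of a type and less RNA per cell cannot be told apart.

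Of 42405 probes, 5400 (12.7%) passed the test, 2349 as higher (5.54%) and 3051 as lower (7.19%) without FGF. Of 20408 genes, 3431 (16.8%) passed it. Without FGF, 1640 genes were higher (8.04%) and 1791 were lower (8.78%), and the median difference over all genes was 0.07. The counts of every gene list below are to be read beside these shares. At 4-fold or more, 319 genes were higher (1.56%) and 342 were lower (1.68%). The changes ran the same way in each of the 3 experiments for 3429 of the 3431 genes, and the cultures of both arms did not overlap for 3426 of them, against 9900 genes (48.5%) without overlap among all those measured. Of the 1640 genes that rose, 46 were well above background on all 6 arrays without FGF and on 0 arrays with bFGF. The opposite pattern, a gene well above background on all 6 arrays with bFGF and on 0 without FGF, was found for 162 of the 1791 that fell. By this count gains over background were fewer than losses, although the largest single differences were gains. The arrays without FGF also had fewer probes well above background (median 62.72% against 70.67%). How far that lower share alone shaped the count was not tested. Normalization with normexp in place of the scanner's own background subtraction gave 53.4% of called probes as higher, against 43.5%.

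The 3 cultures without FGF differed in how often they lay apart from each other, less so in the typical size of response. In experiments 1, 2 and 3 the median difference was 1.03, 1.07 and 1.13 among genes that rose. Among genes that fell it was -1.11, -1.23 and -1.41. Among the genes past the test, the culture farthest from the median of its arm was that of experiment 1 for 1680 genes, that of experiment 2 for 925 and that of experiment 3 for 826. Experiment 1 lay apart for LHX2, PAX6 and DUSP6, described further on. Leaving out experiments 1, 2 and 3 in turn, which leaves 2 cultures an arm, gave 2265, 1271 and 838 genes. How many calls of each gene group held is therefore given beside its count.

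**Figure D1:**
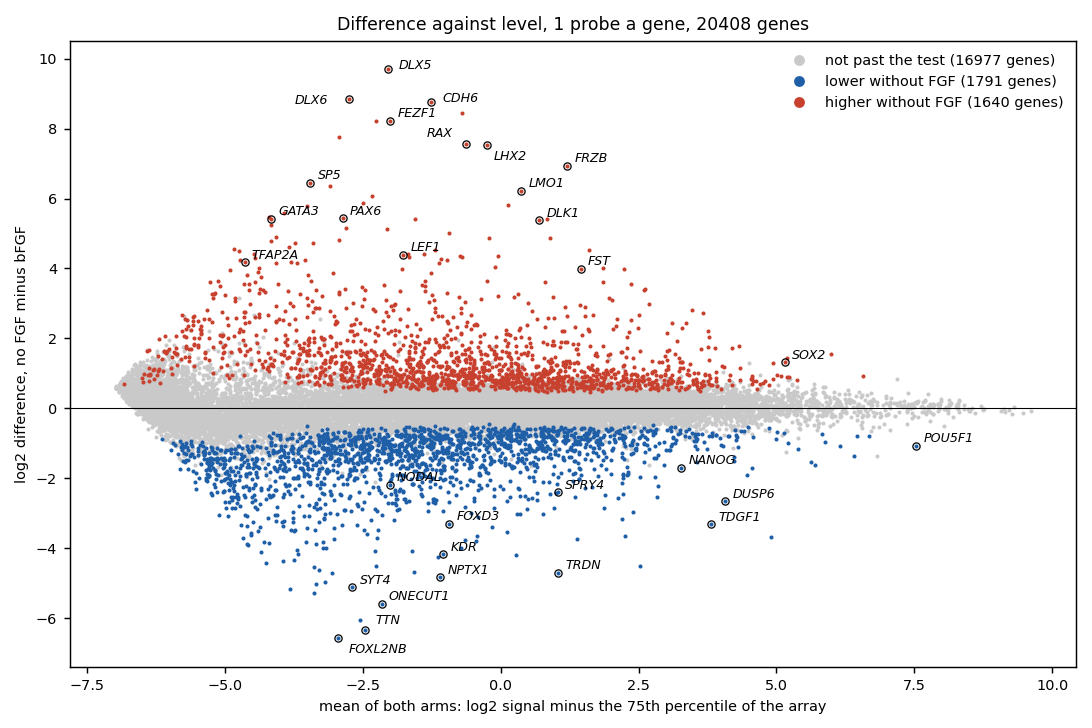
Each point is 1 of 20408 genes, with the mean level of both arms (log2 signal minus the 75th percentile of the array) on the x axis and the log2 difference, no FGF minus bFGF, on the y axis. The 1640 genes that rose (red) reach measured differences of nearly 10 log2 units at DLX5, which was under background with bFGF, and the 1791 that fell (blue) reach -6.57 at FOXL2NB, under background without FGF, while genes not past the test are grey.

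The arms are first described by 6 marker genes. These were set with the comparison, which was chosen with earlier results of these data known, and so are no independent check of the labels. TDGF1, the Nodal co-receptor also called Cripto, stood at 1.98, 2.55 and 1.93 in the cultures of experiments 1 to 3 without FGF and at 5.43, 5.59 and 5.39 in those with bFGF. All 3 cultures without FGF were lower, with a difference of -3.32 ± 0.21 (SE, adjusted p = 3.1e-06). NANOG, a core pluripotency factor, was at 2.79, 2.45 and 2.02 without FGF and 4.11, 4.17 and 4.12 with bFGF, which gives -1.71 ± 0.25 (SE, adjusted p = 0.00096). The NANOG cultures did not overlap, but the adjusted p was 0.056 without experiment 3. SPRY4, a feedback inhibitor of receptor tyrosine kinase signalling, was at -1.10, 0.26 and 0.35 without FGF against 2.02, 2.15 and 2.55 with bFGF, a difference of -2.40 ± 0.34 (SE, adjusted p = 0.00084), and another of its probes gave -0.43 (adjusted p = 0.257). DUSP6, the phosphatase that inactivates ERK, was at 0.92, 3.72 and 3.60 without FGF and 5.23, 5.25 and 5.74 with bFGF. Its level in experiment 1 was far under that of the other cultures without FGF, and the difference was -2.66 ± 0.59 (SE, adjusted p = 0.012). Within experiments 1, 2 and 3 the DUSP6 difference was -4.30, -1.53 and -2.13, so that experiment 1 enlarged the mean fall. Fits that kept experiment 1 gave -3.22 without experiment 2, -2.92 without experiment 3 and -2.88 with the slide as a block. In these the call was lost (adjusted p = 0.058, 0.13 and 0.08), as it was without the bFGF culture of experiment 3 (-2.49, adjusted p = 0.054). DLX5, a homeobox factor, rose at least 387-fold from a level under background (adjusted p = 1.2e-07), and DLK1, a membrane protein related to Notch ligands, rose by 5.37 with the probe used and 9.61 with another. In each culture labelled as lacking FGF, TDGF1, NANOG, SPRY4 and DUSP6 were under, and DLX5 and DLK1 over, every culture with bFGF.

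**Figure D2:**
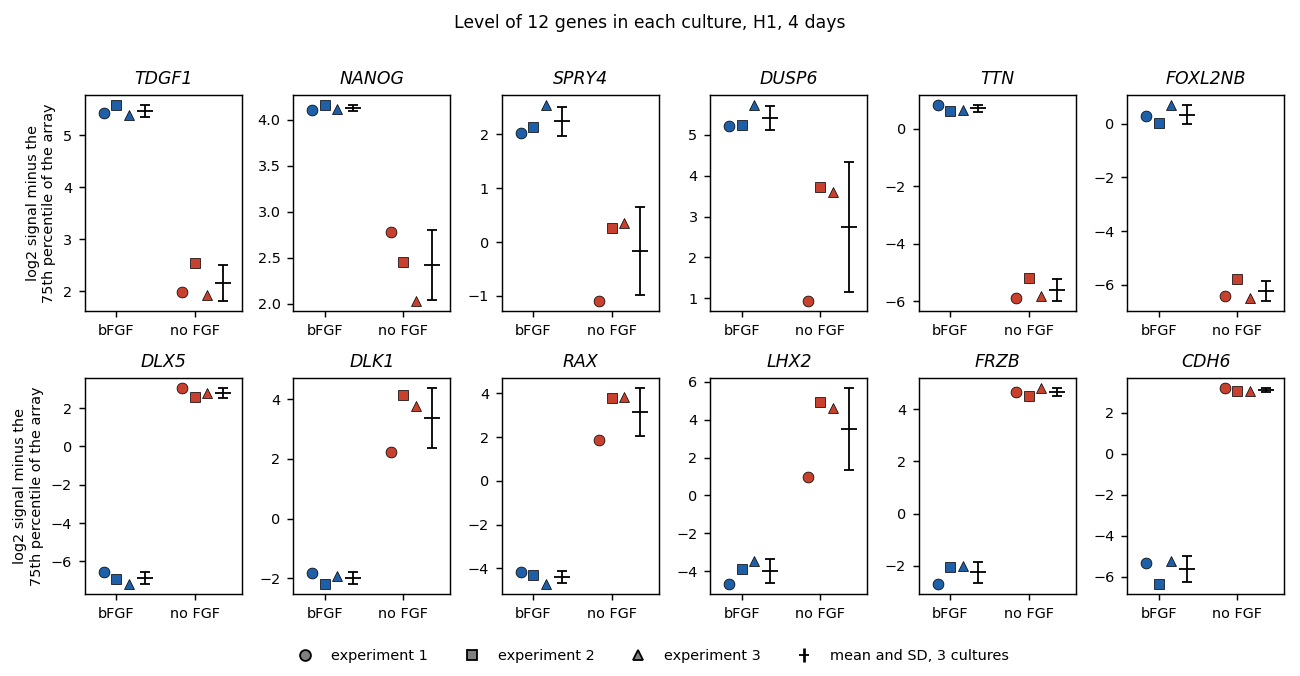
Each panel shows 1 gene, with the 3 cultures of either arm as points (circle, square and triangle for experiments 1, 2 and 3) and the mean and SD beside them, on a scale of log2 signal minus the 75th percentile of the array. In all 12 panels the 2 arms do not overlap, and experiment 1 lies apart from the other cultures without FGF for DUSP6, SPRY4, LHX2, RAX and DLK1.

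ERK feedback and target genes fell in part. Of 27 measured, 9 fell and 2 rose (33.3% and 7.41%), with a median difference of -0.35. Beside DUSP6 and SPRY4, the genes that fell were IER3 (-2.09), an early response gene, MYC (-2.02), the growth-promoting transcription factor, DUSP5 (-1.90), a nuclear ERK phosphatase, ETV4 (-1.44), an ETS factor, FOSB (at least 1.84-fold, on 5 arrays with bFGF), PHLDA1 (-1.39) and SPRY3 (-1.02). MYC stood at 0.34, 0.65 and 0.25 without FGF and 2.60, 2.17 and 2.54 with bFGF. The 3 values of either arm lay close together and far from the other arm, with a difference of -2.02 ± 0.29 (SE, adjusted p = 0.00085). Other members that mark ERK activity did not pass the test, among them SPRY2 (0.28), SPRY1 (0.55), ETV5 (-0.99), FOS (-0.29) and CCND1 (0.52). EGR1, an immediate early gene, instead rose, from -0.77, -0.58 and -1.28 to 1.35, 0.31 and 0.41 (1.57, adjusted p = 0.013), as did DUSP4 (0.58). Of the 11 calls 7, 6 and 1 held without experiments 1, 2 and 3, and that of SPRY4 was the one that held without any of them.

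FGF ligands and receptors moved in different ways. Of 22 ligands, 2 rose and 4 fell, with a median of -0.22. These are 9.09% and 18.2%, beside 8.04% and 8.78% of all genes, so the share that rose was near that of all genes. FGF8, an early patterning ligand, rose from -4.72, -6.22 and -5.27 to -2.94, -0.90 and -0.95, a difference of 3.81 ± 0.52 (SE, adjusted p = 0.00066), and FGF3 (1.92) also rose. The ligands that fell were FGF21 (at least 4.06-fold), FGF19 (-2.0), FGF20 (-1.36) and the intracellular family member FGF13 (-1.82), for which the other probes gave -2.94, past the test, and -0.04. The genes of FGF2 itself, FGF2 (-0.23), and of FGF4 (0.69) did not pass the test. None of the 6 ligand calls held without experiment 3, for which FGF8 had an adjusted p of 0.054. Among 15 receptors and co-receptors, 6 rose and 0 fell, with a median of 0.72. FLRT3, a membrane protein that binds FGF receptors, was at 0.52, 1.01 and 0.55 without FGF and -4.93, -5.62 and -5.55 with bFGF, at least 66.7-fold higher (adjusted p = 3.7e-06). FGFR3 was at 4.95, 3.84 and 4.19 without FGF and 1.71, 1.98 and 1.98 with bFGF (2.44 ± 0.33 SE, adjusted p = 0.00063), and neither gene's arms overlapped. Smaller rises were found for FRS2 (1.06), the adaptor that couples FGF receptors to RAS, FGFR2 (0.77), FGFRL1 (0.73), a receptor without a kinase domain, and FGFBP3 (0.95), whereas FGFR1 (0.58) did not pass the test. The calls of FLRT3 and FGFR3 held without any one experiment, and the other 4 did not. Of 12 heparan sulfate carriers, the proteoglycans that present FGF to its receptors, 3 rose, led by GPC3 (2.73), with SDC1 (0.80) and GPC1 (0.70), and only GPC3 held without any one experiment.

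Pluripotency factors were divided. Of 24 measured, 12 fell (50%) and 3 rose (12.5%), with a median of -0.57, and 7 of the 15 calls held without any one experiment (13, 8 and 7 without experiments 1, 2 and 3). Beside TDGF1 and NANOG, the falls were largest for FOXD3, a forkhead repressor, which was at -2.55, -1.96 and -3.25 without FGF and 0.60, 0.92 and 0.64 with bFGF (-3.31 ± 0.29 SE, adjusted p = 3.6e-05), and for DPPA2 (-2.65). POLR3G (-1.63), an RNA polymerase III subunit enriched in pluripotent cells, and GDF3 (-1.58), a TGF-beta family ligand, followed. POU5F1 (OCT4) differed by -1.08, past the test, and fell to a mean of 7.0, so that it remained a bright gene, and its other probe gave -1.42. By contrast, SOX2, shared by pluripotent and neural cells, rose from 4.48, 4.63 and 4.36 to 5.96, 5.75 and 5.72 (1.32 ± 0.16 SE, adjusted p = 0.00036). OTX2, a factor of the primed state and of the anterior brain, rose from -1.45, -0.92 and -1.69 to 2.06, 1.75 and 1.71 (3.19 ± 0.30 SE, adjusted p = 5.7e-05), and SALL4 (0.82) rose less. Members that did not pass the test included ZFP42 (0.04), DNMT3B (0.01), LIN28A (0.58), PRDM14 (-0.22) and UTF1 (-0.37). Of 16 genes of the naive state, 4 rose and 3 fell (25% and 18.8%). Those that rose, PRDM1 (at least 16.9-fold), TBX3 (at least 7.47-fold), KLF5 (3.00) and DPPA3 (at least 4.84-fold), were well above background on at most 2 arrays with bFGF, and PRDM1 and TBX3 are also known from other lineages. The second probe of TBX3 gave 1.03 and did not pass the test. DPPA5 (at least 4.14-fold), NLRP7 (at least 2.66-fold, on 5 arrays with bFGF) and TFCP2L1 (-1.75) fell, and KLF4 (-0.20), KLF17 (-0.10) and ESRRB (-0.03) did not pass the test.

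Neuroectoderm factors rose in larger number than they fell, and with a larger median than any other lineage list. Of 30 measured, 18 rose (60%) and 1 fell (3.33%), with a median difference of 2.30. The median within experiments 1, 2 and 3 was 1.64, 3.32 and 2.54. RAX, an eye field homeobox factor, was at 1.86, 3.78 and 3.82 without FGF and -4.19, -4.30 and -4.74 with bFGF (7.56 ± 0.45 SE, adjusted p = 2.5e-06). FEZF1, a forebrain zinc finger repressor, was at 2.12, 1.87 and 2.33 without FGF and -5.99, -5.84 and -6.54 with bFGF, at least 217-fold higher with an adjusted p of 5.7e-06. LHX2, a LIM homeobox factor of the eye field and cortex, was at 0.99, 4.94 and 4.59 without FGF and -4.69, -3.91 and -3.44 with bFGF (7.52 ± 0.82 SE, adjusted p = 0.00014). The lowest culture without FGF, that of experiment 1 for RAX and LHX2, was still far over all cultures with bFGF. SIX3 (4.41), HESX1 (5.42), LHX5 (at least 21.4-fold), FEZF2 (at least 18.9-fold), SOX21 (5.40), NR2F2 (at least 25.1-fold) and EMX2 (at least 5.71-fold, on 4 arrays without FGF) rose too. PAX6 was at -2.09, 0.84 and 0.80 without FGF and -5.09, -6.13 and -5.53 with bFGF, at least 37.7-fold higher (adjusted p = 0.00027). Its second probe, not well above background with bFGF, also passed as higher (adjusted p = 4.6e-05), and the third, not well above background without FGF, did not. GBX2, which in embryos marks the hindbrain side of the midbrain border, was the member that fell (-1.94). The midbrain and hindbrain factors EN1 (-0.04) and EN2 (-0.27) did not pass the test, nor did SOX1 (0.58) and SOX3 (-0.20). None of 38 HOX cluster genes, which mark the posterior body axis, passed the test, and HOXA9 and HOXA10 were the ones well above background on all 12 arrays. Of the 19 neuroectoderm calls, 18, 12 and 12 held without experiments 1, 2 and 3.

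The promoter of PAX6 is shown because it is a factor of this group with a cyclic AMP response element (CRE, TGACGTCA) and an ETS core (CCGGAA), the kind of letters that ERK-regulated ETS factors are known to bind. The 250 bases before its first listed start, taken from RefSeq on GRCh38.p14, are chr11:31817962-31818211 on the minus strand, written 5′ to 3′ with both matches in capitals.
PAX6: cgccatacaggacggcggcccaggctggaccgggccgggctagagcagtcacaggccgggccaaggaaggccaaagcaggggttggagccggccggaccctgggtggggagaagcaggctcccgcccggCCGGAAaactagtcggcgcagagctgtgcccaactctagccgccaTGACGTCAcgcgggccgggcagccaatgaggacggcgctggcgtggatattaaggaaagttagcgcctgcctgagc
The first base of the CRE lies 76 bases before the start and that of the ETS core 121 bases before it. Among 15508 genes with a promoter in the table, a CRE was found on either strand in 2.36%, in 2.03% of the genes that rose and in 2.2% of those that fell. An ETS core was found in 19.4% of all, in 15.5% of the genes that rose and in 14.4% of those that fell. At 4-fold or more the share with an ETS core was 9.92% among genes that rose and 11.2% among those that fell. The median GC content of these windows was 62.4% for all genes, 65.6% for those that rose and 65.2% for those that fell. TATAAA was in 8.96% of all promoters, 6.49% of those of genes that rose and 7.95% of those of genes that fell. GGCGCC, bound by SMAD proteins, was in 21.4%, 26.7% and 23.2%. These shares did not hold at 4-fold or more. There TATAAA was in 12% among genes that rose and 7.17% among those that fell, and GGCGCC in 22.3% and 19.9%.

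Neuronal genes did not follow the neural plate factors. Of 20 genes of differentiating neurons, 4 rose and 4 fell (20% each), with a median of 0.15. STMN2 (1.83), TUBB3 (1.73), GAP43 (1.33) and ISL1 (at least 1.75-fold, on 1 array without FGF) rose, and SYT4 (at least 30.2-fold), ELAVL2 (-2.51), MAPT (-1.0) and NEFL (-0.75) fell. TUBB3, a neuronal tubulin already bright in these cells, was at 4.66, 4.82 and 4.76 without FGF and 2.87, 3.26 and 2.92 with bFGF. The proneural factors NEUROG1, NEUROG2, NEUROD1 and NEUROD4 did not pass the test and were on no array of either arm well above background. Calls of SYT4, ELAVL2 and TUBB3 held without any one experiment, and STMN2 and GAP43 lost theirs without experiment 2 (adjusted p = 0.1 and 0.13).

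Members of the DLX family, homeobox factors of the border of the neural plate, of placodes and of the ventral forebrain, were among the genes with the largest rises. Of 6 measured, 4 rose (66.7%), and all 4 held without any one experiment and with the slide as a block. DLX6 was at 2.04, 1.12 and 1.84 without FGF and -7.06, -7.16 and -7.33 with bFGF, at least 176-fold higher (adjusted p = 2.3e-07). DLX3 was at -2.29, -2.91 and -2.32 without FGF and -6.90, -7.10 and -6.98 with bFGF, at least 9.74-fold higher with an adjusted p of 0.00024. DLX4, the genomic neighbour of DLX3, was at -1.19, -1.71 and -1.21 without FGF and -4.79, -3.96 and -4.01 with bFGF (2.88 ± 0.43 SE, adjusted p = 0.0012). For each of the 4 the lowest culture without FGF was over the highest with bFGF. The pair on chromosome 2, DLX2 (1.69) and DLX1 (0.62), did not pass the test. The promoter of DLX6, the family member with the largest difference that the promoter table holds, is shown as chr7:97005303-97005552 on the plus strand of GRCh38.p14 (RefSeq, 250 bases, CRE in capitals).
DLX6: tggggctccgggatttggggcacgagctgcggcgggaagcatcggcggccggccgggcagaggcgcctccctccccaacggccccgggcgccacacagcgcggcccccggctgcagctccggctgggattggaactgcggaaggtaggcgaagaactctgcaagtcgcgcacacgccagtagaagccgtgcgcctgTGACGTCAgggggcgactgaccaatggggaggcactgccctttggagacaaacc
Its CRE begins 54 bases before the start. As given for PAX6, such a match was not more frequent among the genes that rose or fell than among all. At 4-fold or more it was in 2.48% of promoters of genes that rose and 1.59% of those of genes that fell.

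Surface ectoderm and amnion lists rose through shared transcription factors. Of 19 surface ectoderm genes, 6 rose and 1 fell (median 0.35). GATA3 was at -0.43, -2.48 and -1.47 without FGF and -6.80, -6.68 and -7.14 with bFGF, at least 20.1-fold higher (adjusted p = 3.2e-05). GRHL3, a grainyhead factor of surface ectoderm, was at 1.98, 1.15 and 1.58 without FGF and -3.24, -3.33 and -3.77 with bFGF (5.02 ± 0.28 SE, adjusted p = 1.7e-06), though its second probe, not well above background without FGF, did not pass the test. TFAP2A (at least 9.42-fold, on 5 arrays without FGF), TFAP2C (2.17) and the desmosomal PERP (1.31) rose with them. The markers of a stratified epidermis did not follow: TP63 (-0.31) was not past the test, and KRT5, KRT14 and DSG3 were not well above background on any array. Of 24 amnion and trophoblast genes, 8 rose and 2 fell (median 0.71), and of the 8 only VTCN1 (at least 5.39-fold) stands in no other list here. The others were TFAP2A, TFAP2C, GATA3, MSX2, TBX3, IGFBP3 (2.27) and ISL1 (at least 1.75-fold, on 1 array without FGF). GABRP, a GABA receptor subunit known from amnion, fell from -0.40, -0.57 and -0.16 to -4.49, -3.58 and -4.19 (-3.71 ± 0.35 SE, adjusted p = 4.8e-05), and EPAS1 (-0.86) fell. CGA and ELF5 were on no array well above background, and CDX2 (0.50), HAND1 (0.34) and GATA2 (0.73) did not pass the test. In the surface ectoderm list 4 of 7 calls held without any one experiment, and in the amnion list 7 of 10.

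Placode and neural crest genes rose in part. Of 21 preplacodal and placode genes, 6 rose and 1 fell. IRX4, a factor also known from ventricular muscle, was at -3.48, -3.50 and -4.45 without FGF and -1.45, -1.0 and -0.96 with bFGF (-2.67 ± 0.27 SE, adjusted p = 8.0e-05). IRX1 (3.53), OTX1 (1.77), IRX5 (1.38), FOXI1 (at least 1.51-fold, on 1 array without FGF) and PAX8 (1.29) were among the rises, while EYA1 (0.19) and EYA2 (0.61) did not pass the test. The calls held without any one experiment for 2 of the 7 genes, IRX4 among them, and the adjusted p of IRX1 was 0.1 without experiment 1 and 0.19 without experiment 3. Of 20 neural crest genes, 6 rose and 3 fell. SOX9 (1.87), PAX3 (at least 3.59-fold, on 5 arrays without FGF), ZIC1 (at least 7.28-fold, on 4 arrays without FGF), MSX2 (at least 7.53-fold) and NGFR (0.95) were among the rises and FOXD3 (-3.31), ETS1 (at least 1.88-fold, on 4 arrays with bFGF) and ERBB3 (-0.92) the falls. SOX10 (0.50) and TWIST1 (0.34) did not pass the test, and SNAI2 was not well above background on any array. PAX2 (-0.05) of the placode list and PAX7 (0.63) of the crest list did not pass with their brightest probes, while a dimmer probe of either passed as higher (adjusted p = 0.037 and 0.0055). In the crest list 8, 5 and 3 of the 9 calls held without experiments 1, 2 and 3.

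**Figure D3:**
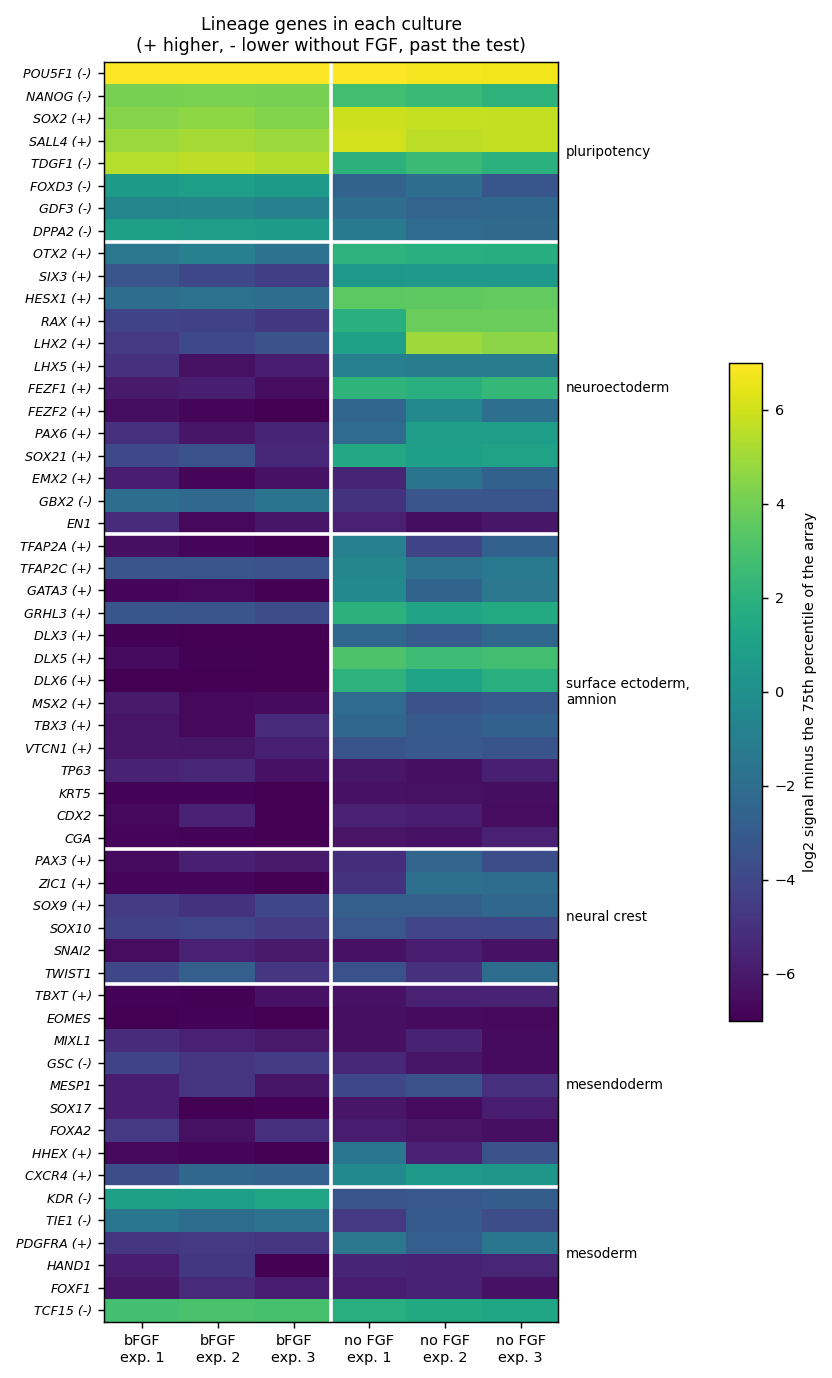
Colour gives the log2 signal minus the 75th percentile of the array for lineage genes (rows) in each of the 6 cultures (columns), with + and - for genes that rose or fell without FGF. Neuroectoderm, surface ectoderm and DLX genes turn from dark to bright in the columns without FGF, while TBXT, EOMES, MIXL1, SOX17, TP63, KRT5, CDX2 and CGA stay dark in all 6.

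Defining genes of the primitive streak were low in both arms. TBXT (brachyury) and EOMES were not well above background on any array of either arm, and MIXL1 (-0.56) did not pass the test. Of 16 genes in this list, 4 passed the test as higher and 2 as lower. The first were TBXT, at levels under background, FGF8 and the WNT target SP5, which also have other sites of expression, and WNT3 (1.62), and the second GSC (at least 1.66-fold, on 4 arrays with bFGF) and MESP2 (-1.37). Only the call of SP5 held without any one experiment. Of 14 definitive endoderm genes, 3 rose, namely CXCR4 (3.03), HHEX (at least 4.69-fold, on 4 arrays without FGF) and PRDM1, and SOX17 was not well above background on any array, while FOXA2 (-0.84), GATA4 (-0.02) and GATA6 (0.86) did not pass the test. CXCR4, a chemokine receptor that forebrain cells also express, was at -0.31, 0.54 and 0.41 without FGF and -3.62, -2.24 and -2.59 with bFGF (3.03 ± 0.39 SE, adjusted p = 0.00042). Of 20 liver and yolk sac proteins 2 rose and 2 fell (10% each), near the shares of all genes. None of these calls held without any one experiment.

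Genes of mesodermal derivatives moved both ways. KDR, the VEGF receptor of endothelial progenitors that ESCs also express, was at -3.31, -3.19 and -2.90 without FGF and 0.95, 0.91 and 1.26 with bFGF (-4.17 ± 0.23 SE, adjusted p = 1.6e-06). TIE1 (-2.03) and FLT1 (-1.42) fell with it and LMO2 (1.6) rose, among 17 genes of endothelium and blood, while CDH5 (-0.01), TEK (0.20), RUNX1 (0.14) and PTPRC (0.29) did not pass the test. Only the call of KDR held without any one experiment, and the adjusted p of TIE1 was 0.096 without experiment 3. Of 22 cardiac and smooth muscle genes, 5 rose and 2 fell. TTN, the giant sarcomere protein titin, was at -5.88, -5.19 and -5.83 without FGF and 0.84, 0.62 and 0.66 with bFGF (-6.34 ± 0.24 SE, adjusted p = 1.7e-07), and its other probes gave -1.83 and -2.88. TNNT2, cardiac troponin T, was at -2.93, -2.25 and -3.76 without FGF and -0.41, -0.10 and -0.48 with bFGF (-2.65 ± 0.33 SE, adjusted p = 0.00037). ACTA2 (2.74), MYL9 (1.36), TPM2 (0.92), TPM1 (0.86) and TNNC1 (0.77) rose, and none of these 5 calls held without experiment 2 or without experiment 3, while NKX2-5 (-0.19) and MYL7 (1.03) did not pass the test. TTN and TNNT2 held without any one experiment. Of 25 genes of paraxial and lateral mesoderm, 4 rose (16%) and 2 fell (8%). PDGFRA (2.86), FOXC1 (1.99), PRRX1 (at least 2.78-fold, on 3 arrays without FGF) and TBX3 rose, and TCF15 (-1.39) and PDGFRB (-1.01) fell. FOXF1 (-0.14), MEOX1 (0.47) and TBX18 (0.34) did not pass the test. Of 10 genes of feeder or fibroblast-like stroma only THY1 (-1.70), which ESCs themselves carry, passed the test.

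BMP ligands, their inhibitors and their targets rose together. Of 33 measured, 16 rose (48.5%) and 1, BMP6 (-1.57), fell (3.03%), with a median of 0.75. Among ligands, BMP4 was at 0.59, -0.30 and -0.73 without FGF and -3.76, -3.01 and -3.77 with bFGF (3.37 ± 0.32 SE, adjusted p = 5.7e-05), and BMP2 (3.03), BMP5 (2.67) and BMP7 (2.64) rose. Among inhibitors, GREM1, which binds BMP ligands, was at -0.56, 1.32 and 0.74 without FGF and -4.23, -4.45 and -5.23 with bFGF (5.14 ± 0.46 SE, adjusted p = 3.9e-05). NOG was at -1.78, -1.62 and -1.41 without FGF and -6.28, -5.83 and -5.21 with bFGF (4.17 ± 0.35 SE, adjusted p = 2.1e-05), and FST (4.00), BMPER (1.62) and TWSG1 (0.83) also rose, whereas CHRD (0.47) did not pass the test. Ligands and secreted inhibitors of the same pathway were thus higher in the same cultures. Among targets, ID4, an inhibitor of basic helix-loop-helix factors, was at 2.82, 1.78 and 2.07 without FGF and -2.78, -2.26 and -2.91 with bFGF (4.87 ± 0.28 SE, adjusted p = 2.1e-06). ID1 (2.81), ID2 (2.36) and ID3 (1.15), MSX2 (at least 7.53-fold), SMAD9 (0.75) and the inhibitory SMAD6 (1.62) rose too. Of the receptors, BMPR1A (0.10) and BMPR2 (-0.17) did not pass the test. Of these 17 calls 15, 12 and 11 held without experiments 1, 2 and 3, and BMP4, GREM1, NOG, FST, ID4 and MSX2 held without any one experiment.

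Nodal and TGF-beta genes moved both ways. Of 30 measured, 6 rose and 7 fell, with a median of 0.25. Beside the co-receptor TDGF1, the falls were of the ligands NODAL (-2.19), GDF3 (-1.58) and INHBE (-2.59), the inhibitor LEFTY1 (-1.93), which is also a direct target, SKIL (-1.05) and TGFBR2 (-0.81). NODAL was at -2.59, -2.54 and -4.19 without FGF and -0.45, -0.88 and -1.42 with bFGF, with the lowest culture of either arm in experiment 3. Its call was lost without experiment 1 or 2 (adjusted p = 0.058 and 0.092), and that of LEFTY1 without any of the 3 (0.13 to 0.18). The rises included TGFBR3 (1.63), SMAD7 (1.13), TGFBI (1.13), TGFBR1 (0.69) and TGFB2 (not well above background in either arm). SMAD2, SMAD3 and SMAD4, the signal transducers, differed by 0.26, 0.43 and 0.46 and did not pass the test.

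WNT genes changed at the receptor and inhibitor level. Of 19 WNT ligands only WNT3 passed the test, and its call was lost without experiment 1 or 2 (adjusted p = 0.17 and 0.15). Of 25 frizzled receptors and inhibitors, 9 rose and 4 fell (36% and 16%), with a median of 0.59. FRZB, a secreted frizzled-related inhibitor, was at 4.68, 4.51 and 4.84 without FGF and -2.71, -2.04 and -2.0 with bFGF (6.93 ± 0.25 SE, adjusted p = 1.5e-07). FZD5, a receptor of the eye field and forebrain, was at 4.19, 4.37 and 4.42 without FGF and 0.83, 0.94 and 0.93 with bFGF (3.42 ± 0.15 SE, adjusted p = 3.6e-07). The spread within either arm was small for both genes. FZD8 (4.33), DKK1 (3.65), FZD1 (2.63), ROR2 (2.12), FZD2 (1.45), FZD3 (1.15) and DKK3 (1.10) rose, and FZD10 (-1.55), FZD7 (-1.08), FZD9 (-0.60) and RYK (-0.48) fell. Targets did not move as one: SP5 (at least 47.3-fold) and LEF1 (4.39) rose far, whereas NKD2 (-0.93) and AXIN2 (-0.72), a general readout of beta-catenin activity, fell, and TCF7 (-0.02) and RNF43 (0.34) did not pass the test. SP5 was at -2.32, 1.67 and -0.02 without FGF and -7.02, -5.96 and -7.05 with bFGF, so that its cultures without FGF spread over nearly 4 log2 units. AXIN2 and NKD2 lost their calls without experiment 3 (adjusted p = 0.23 and 0.12). In the frizzled list 10, 8 and 7 of the 13 calls held without experiments 1, 2 and 3.

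Hedgehog pathway genes rose without a fall. Of 14 measured, 9 rose (64.3%), with a median of 1.09. They were the transcription factors GLI3 (2.29) and GLI2 (1.19), the receptor PTCH1 (1.89), the co-receptors GAS1 (2.25) and BOC (1.53), the decoy HHIP (2.69), the transducers SMO (0.86) and SUFU (0.98), and the ligand IHH (at least 2.69-fold, on 4 arrays without FGF). GLI3, which acts largely as a repressor, was at 3.1, 3.98 and 3.84 without FGF and 1.41, 1.18 and 1.47 with bFGF (2.29 ± 0.23 SE, adjusted p = 9.6e-05). GLI1, the usual readout of pathway activity, did not pass the test (-0.53), nor did SHH (-0.41). Of the 9 calls 9, 5 and 3 held without experiments 1, 2 and 3. The Notch list had 8 rises and 3 falls among 24. DLL1 (2.86), HES1 (1.88), HES5 (1.53), HEY1 (1.30), LFNG (1.24), NOTCH3 (0.85), NOTCH4 (0.68) and NOTCH2 (0.62) rose, though a second LFNG probe gave 0.04. HEY2 (-3.82), DLL3 (-1.54) and JAG1 (-1.15) fell. HEY2 was at -5.64, -5.09 and -4.67 without FGF and -1.17, -1.53 and -1.25 with bFGF (-3.82 ± 0.28 SE, adjusted p = 7.8e-06), the opposite direction to HEY1. Calls of DLL1, HEY2 and DLL3 held without any one experiment, and HES1, HES5 and HEY1 lost theirs without experiment 3 (adjusted p = 0.15, 0.12 and 0.24).

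Retinoic acid genes changed at both ends of the pathway. ALDH1A3, which makes retinoic acid, was at -6.25, -5.37 and -5.63 without FGF and -1.57, -1.66 and -1.51 with bFGF, at least 12.3-fold lower (adjusted p = 3.6e-06). CYP26A1, which degrades it, was at 5.12, 3.67 and 3.91 without FGF and -0.56, 1.17 and 0.14 with bFGF (3.98 ± 0.50 SE, adjusted p = 0.0004). Neither gene's arms overlapped. CRABP2 (2.68), ALDH1A2 (at least 8.51-fold, on 4 arrays without FGF), CYP26C1 (1.56) and RXRA (1.08) rose and RBP4 (-1.44) fell, which makes 5 rises and 2 falls among 19, and a second CRABP2 probe gave -0.21. Calls of ALDH1A3, CYP26A1 and CRABP2 held without any one experiment. In the IGF system of 18 genes, IGFBP5 (2.77), IRS4 (2.46) and IGFBP3 (2.27) rose and IGFBP2 (-1.15), IGFBP4 (-1.12) and IGFBP7 (at least 1.99-fold) fell, and only IGFBP3 held without any one experiment.

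Guidance receptors and ligands rose more than they fell. Of 22 ephrins and Eph receptors, 8 rose and 2 fell. EPHA4, a receptor of boundaries in the early nervous system, was at 3.97, 3.75 and 3.85 without FGF and -0.78, -0.64 and -0.57 with bFGF (4.52 ± 0.23 SE, adjusted p = 7.8e-07), with little spread in either arm. EFNB1 (2.91), EFNB2 (2.39), EFNA5 (1.73), EPHB3 (1.6), EPHA7 (1.55), EPHB2 (1.14) and EPHA3 (not well above background in either arm) rose and EPHA8 (-1.44) and EPHA1 (-1.16) fell. EPHA4, EFNB1 and EFNB2 held without any one experiment. Of 31 semaphorins, plexins and neuropilins, 7 rose and 0 fell, led by SEMA6D (at least 4.76-fold, on 4 arrays without FGF), PLXNA2 (at least 1.68-fold, on 1 array without FGF) and NRP1 (1.62), and 5, 2 and 2 of these calls held without experiments 1, 2 and 3.

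**Figure D4:**
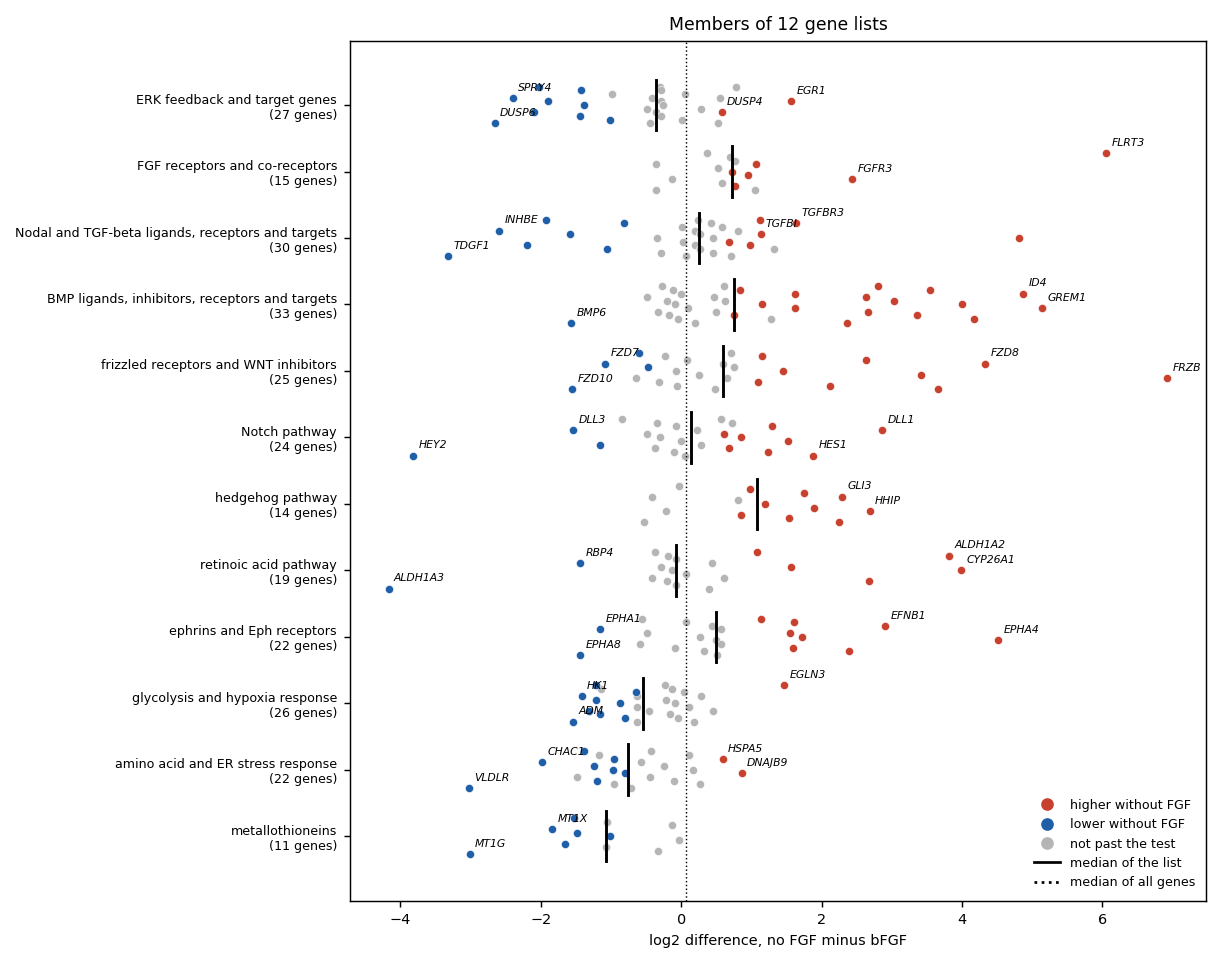
Points are the members of 12 gene lists by log2 difference, no FGF minus bFGF, in red where the gene rose, in blue where it fell and in grey where it did not pass the test, with a bar at the median of the list and a dotted line at that of all genes (0.07). The medians of the BMP (0.75), hedgehog (1.09) and FGF receptor (0.72) lists lie to the right of the dotted line, with differences of genes near background drawn as measured.

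Cadherins of neural and mesenchymal cells rose. CDH6, a cadherin of neural plate and crest, was at 3.23, 3.06 and 3.08 without FGF and -5.31, -6.37 and -5.22 with bFGF (8.75 ± 0.29 SE, adjusted p = 1.0e-07), on 1 of 6 arrays well above background with bFGF. CDH2, N-cadherin, was at 3.49, 4.74 and 4.07 without FGF and 1.96, 1.85 and 1.98 with bFGF (2.17 ± 0.28 SE, adjusted p = 0.00052). CDH11 (3.04), CDH18 (3.27), CDH13 (at least 2.87-fold, on 4 arrays without FGF) and ZEB2 (at least 6.74-fold, on 5 arrays without FGF) rose, P-cadherin, CDH3 (-1.18), fell, and E-cadherin, CDH1 (0.00), EPCAM (-0.65), SNAI1 (-0.29) and VIM (1.04) did not pass the test, which makes 6 rises and 1 fall among 27. CDH3 lost its call without experiment 2 or 3 (adjusted p = 0.063 and 0.11). Of 25 claudins and tight junction genes 1 rose and 4 fell (4% and 16%), led by CLDN1 (at least 2.48-fold) and CLDN11 (-1.84). Laminins had 3 falls and 1 rise among 12. LAMC3 was at -1.48, -1.96 and -2.10 without FGF and 1.5, 1.46 and 1.66 with bFGF (-3.38 ± 0.23 SE, adjusted p = 6.2e-06), LAMA3 (-2.0) and LAMB3 (-1.06) fell, and LAMB1 (1.40) rose, while the second LAMA3 probe gave 0.37. LAMC3 and LAMA3 held without any one experiment. Of 22 keratins only KRT18 (-0.74) passed the test, and of 21 integrins ITGB8 (1.63) rose and ITGB1 (-0.77) fell, of which only ITGB8 held without any one experiment.

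Imprinted genes rose in part. Of 28 measured, 10 rose (35.7%) and 1 fell, with a median of 0.55. Beside DLK1, NNAT was at 4.12, 4.52 and 4.69 without FGF and 1.88, 2.39 and 2.18 with bFGF (2.29, past the test), and MEST at 4.28, 4.61 and 5.04 and 2.75, 2.88 and 3.01 (1.76 ± 0.26 SE, adjusted p = 0.00096). PEG10 (1.71), NAP1L5 (1.39), PEG3 (1.29), GNAS (0.92), SGCE (0.87), ZDBF2 (0.74) and MAGEL2 (0.60) rose and KCNQ1OT1 (-1.42) fell. A second PEG3 probe gave -0.50. The probes of MEG3, the maternally expressed RNA of the DLK1 locus, differed among themselves. The brightest gave -0.07 and did not pass the test, while 4 of its other 6 probes passed as higher, among them one well above background on all 12 arrays, which gave 4.98 (adjusted p = 2.5e-06). H19 (-0.01) and IGF2 (0.46) did not pass the test. DLK1, NNAT and MEST held without any one experiment, and PEG10 had an adjusted p of 0.051 without experiment 3. Among 9 DNA methylation enzymes only UHRF1 (1.25) passed the test with its brightest probe, and a dimmer probe of DNMT3A, well above background on all 12 arrays, passed as lower (-1.67, adjusted p = 0.0033).

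Few cell cycle genes passed the test. Of 22 proliferation genes only BUB1B (-0.62) passed the test, with MKI67 (-0.40), TOP2A (0.12) and PCNA (0.23) among the others. RRM2 differed by 1.12 with the probe used and by -1.57 with another. Of 19 cyclins only CCNG2 (1.15) rose, and of 11 CDK inhibitors and RB family genes only CDKN1A (-1.24) fell. None of these 3 calls held without experiment 3 (adjusted p = 0.34, 0.34 and 0.25 for BUB1B, CCNG2 and CDKN1A). None of 22 ribosome biogenesis genes, 77 ribosomal proteins and 36 subunits of mitochondrial complex I passed the test, with medians of 0.04, 0.09 and 0.00. Of 23 p53 targets and apoptosis genes, 6 fell and 3 rose. GDF15 (-2.85), RRM2B (-2.09), PMAIP1 (-1.74), SESN2 (-1.48) and PHLDA3 (-1.46) fell and TP53I3 (1.66), BCL2L11 (1.36) and TP53INP1 (0.73) rose, whereas MDM2 (-0.15) and BAX (-0.26) did not pass the test. RRM2B, a ribonucleotide reductase subunit, was at -2.31, -2.17 and -2.51 without FGF and -0.20, -0.11 and -0.39 with bFGF (-2.09 ± 0.21 SE, adjusted p = 9.3e-05) and held without any one experiment, as TP53I3 did, whereas GDF15 did not (0.076 and 0.09 without experiments 1 and 3).

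Genes of glycolysis and of stress responses fell more than they rose, unlike those of cholesterol and fatty acid synthesis. Of 26 genes of glycolysis and the response to hypoxia, 9 fell and 1 rose (34.6% and 3.85%), with a median of -0.54. ADM (-1.54), HK1 (-1.42), ALDOC (-1.31), NDRG1 (-1.22), VEGFA (-1.21), SLC2A1 (-1.15), PFKP (-0.87), LDHA (-0.80) and PDK1 (-0.64) fell and EGLN3 (1.47) rose, while HK2 (-0.16), GAPDH (0.18) and ENO1 (-0.09) did not pass the test. HK1, a hexokinase, was at 2.34, 1.86 and 2.03 without FGF and 3.50, 3.46 and 3.52 with bFGF, without overlap. Of these 10 calls 5, 2 and 1 held without experiments 1, 2 and 3. Of 22 amino acid and ER stress genes, 8 fell and 2 rose (median -0.76). VLDLR, a lipoprotein receptor, was at -1.33, -0.93 and -1.38 without FGF and 2.09, 1.61 and 1.74 with bFGF (-3.03 ± 0.34 SE, adjusted p = 0.00017), and CHAC1 (-1.98), CEBPB (-1.38), ATF3 (-1.25), MTHFD2 (-1.20), SLC7A5 (-0.97), ASNS (-0.95) and SLC3A2 (-0.80) followed. The chaperones HSPA5 (0.59) and DNAJB9 (0.86) rose, and ATF4 (-0.24) did not pass the test. VLDLR alone held without any one experiment. Of 28 genes of cholesterol and fatty acid synthesis 3 rose, TM7SF2 (1.24), INSIG1 (1.19) and MVK (0.85), and SC5D (-0.93) fell, and none held without experiment 3. Of 22 interferon response genes 4 fell, led by TAP1 (-1.18) and PSMB8 (-0.87), and IRF7 (0.78) rose, and none held without experiment 2. Of 18 heat shock proteins 3 fell, HSPA4L (at least 5.3-fold), HSPB8 (-2.16) and HSPA2 (-0.84), and the call of HSPA2 was lost without experiment 2 or 3 (adjusted p = 0.19 and 0.2).

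Metallothioneins, small proteins that bind zinc and copper, fell as a cluster on chromosome 16. Of 11 measured, 6 fell (54.5%) and 0 rose, with a median of -1.07. MT1X was at 0.38, 0.26 and -0.09 without FGF and 2.38, 2.30 and 1.38 with bFGF (-1.84 ± 0.34 SE, adjusted p = 0.0046). MT2A was at -0.50, -0.11 and -0.62 without FGF and 1.36, 1.26 and 0.61 with bFGF (-1.49 ± 0.36 SE, adjusted p = 0.019). In both genes the culture of experiment 3 was the lowest of its arm, also with bFGF. MT1G (-3.01), MT1E (-1.65), MT1H (-1.53) and MT1B (-1.01) were the others, MT1F (-1.06) and MT1A (-0.33) did not pass the test, and probes of these near-identical genes may share signal. None of the 6 calls held without experiment 2 (adjusted p = 0.099 to 0.18), and 4 and 2 held without experiments 1 and 3. With FGFC the means were 1.16 for MT1X and 0.60 for MT2A, between those of the other arms. Their promoters are shown because the members moved together. They are given as the 150 bases before the first listed start, chr16:56682320-56682469 and chr16:56608434-56608583, both on the plus strand of GRCh38.p14 (RefSeq), with the TATA box (TATAAA) and, in MT2A, an AP-1 site (TGANTCA) in capitals.
MT1X: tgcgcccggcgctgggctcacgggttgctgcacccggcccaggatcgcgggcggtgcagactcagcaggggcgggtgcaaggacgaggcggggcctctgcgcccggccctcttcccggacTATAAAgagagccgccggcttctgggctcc
MT2A: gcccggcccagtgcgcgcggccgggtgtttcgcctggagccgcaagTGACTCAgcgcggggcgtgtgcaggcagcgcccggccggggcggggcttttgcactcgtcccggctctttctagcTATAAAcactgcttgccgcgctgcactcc
The TATA box begins 30 bases before the start in MT1X and 29 in MT2A, and the AP-1 site 104 before it. An AP-1 match was in 5.13% of all promoters, 4.77% of those of genes that rose and 4.84% of those of genes that fell. At 4-fold or more the shares were 6.2% and 5.58%.

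**Figure D5:**
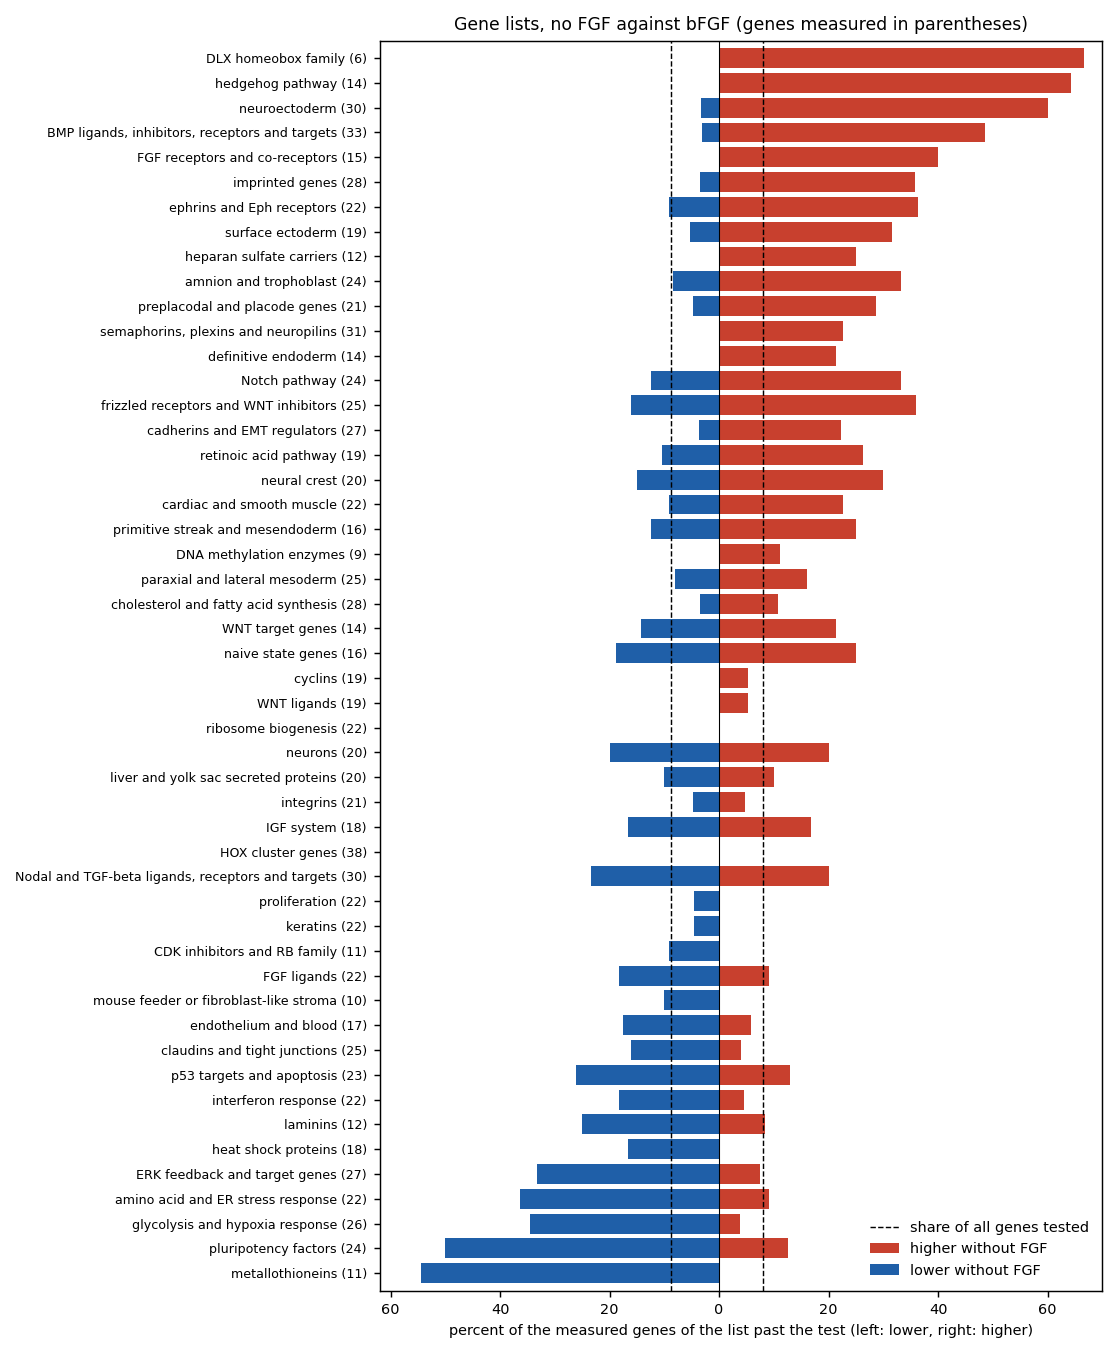
Bars give, for each of 50 gene lists, the percent of its measured genes (number in parentheses) that rose (red, right) or fell (blue, left) without FGF, and dashed lines mark the shares among all genes, 8.04% and 8.78%. DLX, hedgehog, neuroectoderm and BMP lists reach 48.5% or more to the right, and metallothioneins and pluripotency factors 50% or more to the left.

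The largest rises outside these lists were few in kind. GREB1L, a co-factor needed for kidney and inner ear development, was at 1.78, 1.61 and 2.15 without FGF and -6.28, -6.27 and -6.52 with bFGF, at least 197-fold higher (adjusted p = 7.8e-07). LIX1 was at 0.47, 1.32 and 1.04 without FGF and -6.83, -6.87 and -6.73 with bFGF, at least 106-fold higher (adjusted p = 5.8e-07), and ERP27, an endoplasmic reticulum protein, rose at least 55.8-fold (adjusted p = 5.8e-07). LMO1, a LIM-only cofactor, was at 4.02, 2.97 and 3.45 without FGF and -2.77, -2.56 and -2.88 with bFGF (6.21 ± 0.27 SE, adjusted p = 3.6e-07). VAX1, a homeobox factor of the ventral forebrain and optic stalk, was at -0.52, 1.01 and 0.84 without FGF and -4.53, -6.22 and -5.58 with bFGF (5.88 ± 0.49 SE, adjusted p = 2.1e-05). None of these genes had overlapping arms, and the uncharacterised LOC100130502 rose by 8.46.

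The largest falls were of genes that are not part of the core pluripotency circuit. ONECUT1, a factor of liver and neurons, was at -4.54, -5.05 and -5.26 without FGF and 1.00, 0.30 and 0.60 with bFGF (-5.58 ± 0.50 SE, adjusted p = 3.8e-05). VWC2, a secreted BMP antagonist, fell at least 18.8-fold (adjusted p = 3.5e-07), in the opposite direction to GREM1 and NOG. SYT4, a vesicle protein, was at -4.58, -5.19 and -5.98 without FGF and 0.01, -0.11 and -0.29 with bFGF, at least 30.2-fold lower (adjusted p = 2.6e-06). IL17C (at least 22.6-fold), ALKAL2 (at least 21.7-fold), a ligand of the receptor kinase ALK, PDZD4 (at least 16-fold), TRDN (-4.71), a sarcoplasmic reticulum protein, CCDC141 (-4.62) and the uncharacterised LOC644838 (at least 20.5-fold) and FLJ46120 (-6.06) belonged to the same group. The CCDC141 probe used is annotated to a long intergenic RNA region. Other CCDC141 probes gave smaller falls, -2.63 and -1.53, both past the test. NPTX1, a neuronal pentraxin, was at -3.82, -2.88 and -3.82 without FGF and 1.21, 2.59 and 0.17 with bFGF, with a wide spread in the cultures with bFGF, and its call and that of LOC101927668 (-4.69) were lost without experiment 1 (adjusted p = 0.059 and 0.061). FOXL2NB and its neighbour FOXL2, a forkhead factor, fell at least 49.3-fold and 11.9-fold (adjusted p = 5.8e-07 and 9.0e-06), although a second FOXL2 probe, not well above background, did not pass the test. Of the 35 genes made up by the 6 markers and the largest rises and falls, 31 held without any one experiment and 34 without any one culture.

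Some gene families moved mainly one way and others both ways, beside shares of 8.04% higher and 8.78% lower among all genes. Of 19 SOX factors, 7 rose (36.8%) and 0 fell. SOX11, a factor of neural progenitors, was at 4.81, 4.98 and 4.81 without FGF and 2.68, 2.71 and 2.54 with bFGF (2.22 ± 0.17 SE, adjusted p = 1.1e-05), and SOX5 (at least 9.64-fold) and SOX15 (1.49) rose beside SOX2, SOX9 and SOX21. LIM homeobox factors had 5 rises and 1 fall among 12 (41.7% and 8.33%). KLF and SP factors had 6 rises and 1 fall, KLF9 (-3.16), among 26 (23.1% and 3.85%). Forkhead factors moved both ways, with 5 rises and 7 falls among 43 (11.6% and 16.3%). Of 372 solute carriers, 21 rose (5.65%) and 44 fell (11.8%), among them SLC7A14 (at least 5.59-fold), SLC43A1 (-3.0) and SLC4A8 (2.95). Of 406 long intergenic RNAs, 4 rose (0.985%) and 21 fell (5.17%), and only 123 were well above background on all arrays of an arm. LINC00458, an RNA known from pluripotent cells, was at -6.38, -6.47 and -6.58 without FGF and -2.10, -1.76 and -2.28 with bFGF, at least 10.8-fold lower (adjusted p = 5.9e-05). Zinc fingers of the ZNF family, with 38 rises and 28 falls among 491, and 358 olfactory receptors, with 5 of each, stayed at or under the share of all genes. Only 41 of the olfactory receptors were well above background on all arrays of an arm, against 445 of the zinc fingers. Among 44 collagens, 5 rose (11.4%) and 8 fell (18.2%), with COL17A1 (at least 4.44-fold), COL9A2 (2.00) and COL23A1 (-2.31). Single members with large changes were ADAMTS8 (-4.0), RAB17 (-4.51), PCDH7 (4.36) and S100B (at least 7.1-fold), which all held without any one experiment.

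Neighbouring genes were listed in the order of RefSeq on GRCh38.p14. Among 20032 genes placed there were 723 pairs of adjacent measured genes that both passed the test, of which 235 both rose, 273 both fell and 215 moved in opposite directions. With 16.8% of all genes past the test, many such pairs arise without any link, and the number to expect was not computed. The pairs named next were picked from those that moved the same way. On chromosome 7, DLX6-AS1 (at least 9.07-fold) rose beside DLX6 and DLX5, and FEZF1-AS1 (3.50) beside FEZF1. On chromosome 10, GATA3-AS1 (at least 19-fold) lay beside GATA3, on chromosome 17 DLX4 beside DLX3, and on chromosome 2 GAD1 (at least 20.1-fold) beside SP5. On the side of the falls, CCDC141 lay beside TTN on chromosome 2, FOXL2NB beside FOXL2 on chromosome 3, RIT2 (-3.21) beside SYT4 on chromosome 18, VLDLR-AS1 (-2.93) beside VLDLR on chromosome 9 and L1CAM (at least 8.33-fold) beside PDZD4 on chromosome X. Antisense and host genes overlap, and whether their probes share signal was not tested.

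Levels with FGFC and before the start are given beside these values, with the bFGF arm shared in the fit. Mean levels of RAX were -4.94 before the start, -4.74 with FGFC, -4.41 with bFGF and 3.15 without FGF. Those of TDGF1 were 5.44, 5.52, 5.47 and 2.15, and those of KDR 1.09, 1.03, 1.04 and -3.13. In all 3 genes the arm without FGF stood apart from the others. For FEZF1 the means were -6.52, -4.46, -6.12 and 2.11, and for GREB1L -7.10, -4.20, -6.36 and 1.85. NPTX1 was at -0.09 before the start, 2.67 with FGFC and 1.32 with bFGF. Against FGFC, 2943 genes (14.4%) passed the test without FGF, 1414 of them higher (6.93%) and 1529 lower (7.49%), and these counts share the cultures without FGF with those against bFGF.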

How the data were processed

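RNA of H1 cultures was extracted with ISOGEN, amplified and labelled in one colour (Low Input Quick Amp) and hybridised to SurePrint G3 8x60K arrays. The deposited values are intensities, that is, the background-subtracted signal of each spot that the authors obtained with Agilent Feature Extraction 10.7.3.1. They equal the scanner values and are not scaled. For the authors' own analysis, the study's methods describe a scaling to the 75th percentile in GeneSpring GX. Of 62976 spots an array, 4259 were controls and not used. The remaining 58717 spots hold 42405 probes, and spots of a probe were averaged after removal of outlier spots. From the intensities, the log2 signal minus the 75th percentile of the array was computed, both arrays of a culture were averaged, and limma 3.58.1 in R 4.3.3 (lmFit, then eBayes, with Benjamini-Hochberg adjustment over the probes) was fitted to 12 cultures, 3 each before the start, with bFGF, with FGFC and without FGF. The other 30 arrays were not used. The number of arrays limits the precision. A probe was taken as well above background on an array where at least a share of 0.5 of its spots was so.

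Names came from RefSeq accessions for 25711 probes and from the study's symbol column for 1321, while 15373 stayed unnamed, which leaves 20408 genes, 5349 of them with several probes. The 50 gene lists and 27 families (993 genes listed in the 50 lists, 981 measured) and the comparison itself were chosen with earlier results of these data known. By rule, the text names 6 markers, up to 15 of the largest rises and falls past the test that ran the same way in 3 experiments and were well above background on all arrays of the higher arm, and in each list up to 6 such members, with any member of a list of up to 30 genes. Members of longer lists beyond those 6, neighbouring genes and the members named in a count were chosen after their values were seen. Results of some genes that enter the counts are not reported here.

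The experiment numbers pair the arms, since cultures of the same experiment deviated together from their arm means (r = 0.321, 0.226 and 0.191, against -0.218 to 0.0297 between experiments). In experiments 1 and 3 both arms shared a slide, and in experiment 2 the bFGF arrays were on another. On simulated data with 100 probes planted at 2-fold and 100 at 4-fold, the same fit recovered 20% and 59%, with 3 false calls among 42405. The planted changes were far fewer than the 5400 calls in the data. The adjustment depends on the share of changed probes, so these values are not rates for those calls. Alternatives were quantile normalization, normexp on the median signal, a floor, a percentile over spots, filters on dim probes, 1 array a culture, the experiment or slide as a block, only both arms, the deposited value table, and leaving out cultures or experiments.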

Additional observations from a re-analysis of the deposited data

How the results depend on the processing

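Against 5400 probes (2349 higher, 3051 lower) and 3431 genes, a fit to only the no FGF and bFGF arms gave 9750 probes (5552 higher, 4198 lower) and 5372 genes, and the slide as a block gave 3655 probes (1352 higher, 2303 lower) and 2193 genes. An adjusted p of 0.01 left 2731 probes and 1818 genes, and a 2-fold minimum beside 0.05 left 3509 probes and 2131 genes. Leaving out 1 culture or 1 experiment gave 1272 to 4946 probes, 507 to 2050 higher, 765 to 2896 lower, and 838 to 3191 genes, with the lowest counts without experiment 3. These fits have fewer cultures, and a lone lost call is therefore no sign of a smaller difference. The same holds for the slide as a block, a fit that left out the cultures before the start. In it the bFGF culture of experiment 2, alone on its slide, did not inform the difference. With the experiment as a replicate block, since the numbers pair the arms, 5750 probes passed (2520 higher, 3230 lower). The share of called probes that were higher was 43.5%, 47.3% with quantile normalization, 53.4% with normexp (3234 higher, 2822 lower), 39% with a percentile over spots, 37% with the slide as a block and 56.9% with 2 arms only. The median difference over all probes moved from 0.01 to between -0.05 and 0.07, and no named gene changed its direction past the test. Of 317 genes named by the rule, 313 held with the replicate block, 315 with quantile normalization, 297 with normexp, 245 with the slide as a block, 228 without any one culture and 140 without any one experiment. Probes not well above background limit what can be said of their lower arm.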

Other observations

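Of the 5400 probes past the test, 1069 carry no gene name here. At an unadjusted p under 0.05, 6324 genes (31%) differed between the arms. Among the genes that rose the median difference was 1.03, 1.07 and 1.13 in experiments 1, 2 and 3, and among those that fell it was -1.11, -1.23 and -1.41.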
